A study of Mus musculus with 80 samples.

Results

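These data describe the effect of transcription and translation inhibitors on ribosome-bound RNA of microglia during the preparation of a brain cell suspension. The members are the 8 TRAP libraries, of 80 in the series, whose titles mark a suspension made with or without inhibitors: 4 with inhibitors and 4 without, paired within mice 156, 157, 1361 and 1362. TRAP, translating ribosome affinity purification, pulls down ribosomes that carry an eGFP tag. All animals were Cx3cr1(Jung)-cre/Ert2+;NuTRAP+ mice, in which a tamoxifen-activated Cre under the Cx3cr1 promoter switches on the tagged ribosomes. They received tamoxifen at 100 mg/kg daily for 5 days from about 3 months of age, and brains were taken at 5 to 8 months. In the treated group, actinomycin D at 5 µg/ml, triptolide at 10 µM and anisomycin at 10 µg/ml were present while the tissue was digested and dispersed for 30 minutes at 37 degrees. The control group was dissociated without them. The lysis buffer of both groups held cycloheximide. Other Cx3cr1-expressing cells, such as macrophages at the borders of the brain, carry the tag too, and animals were not pooled. The question is which messages on microglial ribosomes depend on new transcription or translation while the cells are being released from tissue.

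Immediate-early genes are induced within minutes of a stimulus, without the need for new protein, and their transcripts are short-lived. Actinomycin D and triptolide block transcription, the first by binding DNA and the second by acting on the general transcription machinery, while anisomycin blocks peptide bond formation on the ribosome. Microglia, the resident macrophages of the brain, answer injury and handling with transcription factors of the Fos, Jun and Egr families, with cytokines and with chemokines.

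Total counts were 12876281 to 14650332 per library without inhibitors and 11415171 to 12620656 with them. Levels are library-size-scaled counts (CPM, scaled with TMM), always listed for mice 156, 157, 1361 and 1362 in that order. Changes are log2 fold changes with inhibitors over without, from edgeR with mouse as a paired factor. SE is the absolute change divided by the square root of the F statistic of that fit. It is not the spread between mice. A gene was called at a false discovery rate below 0.1 together with a fold change above 2. The labelled cell type was checked first with the microglial genes Tmem119, P2ry12, Siglech, Csf1r and Cx3cr1. Cx3cr1 is also expressed by macrophages at the borders of the brain. Tmem119 stood at 2713, 3192, 2861 and 2036 CPM without inhibitors and 3074, 3079, 3099.6 and 2524 CPM with them. Cx3cr1, the fractalkine receptor whose promoter drives the tag, stood at 2778, 3358, 3056 and 3187 CPM without and 2869, 2973, 2992 and 3293 CPM with inhibitors. Both genes overlapped between the groups, and none of the 5 was called. The Y-linked gene Ddx3y was at 75.2, 86.2, 0.545 and 0.313 CPM without inhibitors and 67.4, 65.2, 0.233 and 0.250 CPM with them, so each pair carried the same pattern in both of its libraries. Sex is recorded by the study outside the sample labels, and it was not used to group the animals.

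With inhibitors, 135 of 13334 genes tested were called lower and 15 were called higher in TRAP RNA. The shares were 1.01% and 0.112% of the genes tested, or 1.12% for both directions. All 135 genes called lower were lower in 4 of 4 mice, 60 of them fell by more than 4-fold and 26 by more than 16-fold. The median log2 fold change over all genes tested was -0.01. Without regard to the size of the change, 1002 genes passed the false discovery rate as lower (7.51%) and 1377 as higher (10.3%). Of the genes with a mean of at least 5 CPM in the higher group, an added restriction chosen after the values were seen, 92 of 10480 were called lower (0.878%) and 3 were called higher (0.0286%). Without mouse as a replicate block, 109 genes were called lower and 7 higher. The DESeq2 Wald test called 82 lower and 1 higher. It was run with the default DESeq2 filter on mean counts, and genes left without an adjusted p counted as not called. Groups of 4 libraries did not overlap at all for 110 of the 135 genes called lower, against 660 of all genes tested that lay apart in that direction (4.95%).

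By fitted fold change, the 5 largest falls among the named genes were in the immediate-early transcription factor genes Fosb, Fos, Egr1 and Egr2 and in the chemokine gene Cxcl2. The place of Cxcl2, and that of Il10 after them, rests on 2 counts with inhibitors and is not fixed at this depth. The DESeq2 Wald test, with its filter on mean counts, did not call either of them, nor 13 more named genes. These included Dusp2, Ptgs2, Hspa1l, Hist1h1d and Hist1h1e. Of the 24 such factors measured, 15 were called lower and none higher, with a median log2 fold change of -2.67 against -0.01 over all genes tested. Fosb, a partner of Jun proteins in the AP-1 factor, was at 565, 650.0, 1029 and 1609 CPM without inhibitors and 2.81, 4.87, 2.71 and 2.41 CPM with them. Each library without inhibitors lay far above each library with them, and mouse 157 was highest among the treated. The fitted change was 287-fold lower (log2 fold change -8.16, SE 0.23, adjusted p = 2.28e-10). Fos, the best known member of the class, was at 3147, 3740.4, 4714 and 6152 CPM without and 16.6, 21.2, 11.9 and 22.7 CPM with inhibitors. The groups were far apart in all 4 mice, with a log2 fold change of -7.92 (SE 0.17, adjusted p = 1.55e-11). Jun, the other AP-1 arm, was at 3040.3, 3532, 4784 and 4950.3 CPM without and 114, 119, 112 and 105 CPM with inhibitors. The treated libraries lay within a narrow band while the controls spread, with mice 1361 and 1362 highest (log2 fold change -5.15, SE 0.13, adjusted p = 5.22e-11).

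Egr1, a zinc-finger factor induced by growth factors and synaptic activity, was at 1988, 2074, 3054 and 3865 CPM without and 20.98, 22.97, 15.7 and 29.3 CPM with inhibitors. Its groups did not overlap (log2 fold change -6.92, SE 0.16, adjusted p = 2.45e-11). Egr2, which takes part in myelination and in lymphocyte tolerance, was at 166, 90.96, 216 and 350.1 CPM without and 2.25, 1.91, 1.71 and 1.50 CPM with inhibitors. Again all 4 treated libraries were lowest, and the log2 fold change was -6.75. Atf3, a stress-induced repressor, was at 644, 703, 1149 and 1421 CPM without and 19.8, 21.6, 19.8 and 20.7 CPM with inhibitors. The 4 treated values differed by less than 2 CPM, while the controls were lowest in mouse 156 and highest in mouse 1362. Nr4a1, an orphan nuclear receptor, was at 238, 170.3, 429 and 876 CPM without and 13.3, 16.96, 8.84 and 9.49 CPM with inhibitors. Mouse 1362 was highest among its controls and mouse 157 lowest, and the groups did not overlap (log2 fold change -4.88, SE 0.38, adjusted p = 4.28e-06). Junb, named after its values were seen, changed by -4.30 and Klf2 by -3.63. Jund, Klf4, Klf6, Csrnp1, Egr3 and Myc were called lower too. Nr4a2, Nr4a3, Maff and Srf did not pass the test, and Srf stood at a log2 fold change of 0.05.

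**Figure D1:**
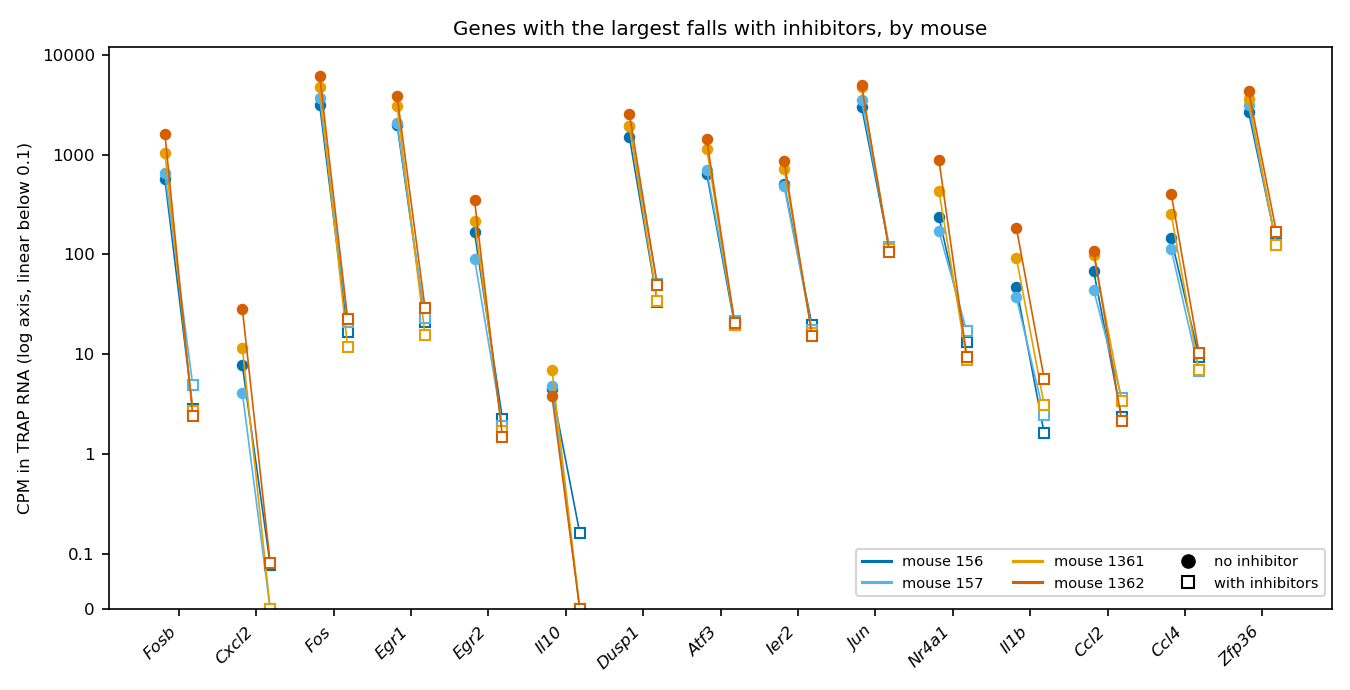
CPM in TRAP RNA (log axis, linear below 0.1) of the 15 genes with the largest falls, with filled circles for suspensions without inhibitors, open squares for those with inhibitors and a line for each of the 4 mice. Fos runs from 3147 to 6152 CPM without inhibitors and from 11.9 to 22.7 CPM with them, and all 15 genes are lower with inhibitors in every mouse.

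Early-response genes that are not transcription factors moved the same way: 12 of 20 were called lower and none higher, with a median of -1.47. Ier2, an immediate-early response gene of the nucleus and cytoplasm, was at 505, 483, 725 and 871 CPM without and 19.5, 17.4, 16.5 and 15.3 CPM with inhibitors. Its groups were separated in every mouse (log2 fold change -5.19, SE 0.16, adjusted p = 3.51e-10). Btg2, an anti-proliferative gene, was at 1413, 1719, 2094 and 2777 CPM without and 153, 168, 139 and 168 CPM with inhibitors. The treated libraries kept more than 100 CPM, and the fall was 12.4-fold. Gem, a small GTPase, changed by -3.87 and Ier3 by -3.71. Arc, Tob1 and Ier5l did not pass the test.

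Some genes that shorten or limit a signalling response were called lower too. Among the mRNA-decay factors of the Zfp36 and Regnase families, 4 of 6 were called lower, with a median of -1.11. Zfp36, which binds AU-rich elements of cytokine transcripts and speeds their decay, was at 2688, 3149, 3609.6 and 4346 CPM without and 128, 124, 123 and 167 CPM with inhibitors. The groups did not overlap, with mouse 1362 the highest in both (log2 fold change -4.66, SE 0.08, adjusted p = 1.6e-12). Its relatives Zfp36l1 and Zfp36l2 changed by -1.57 and -1.07, and Zc3h12a by -1.16. Of 13 MAPK phosphatases and Sprouty genes measured, 4 were called lower, with a median of -0.32. Dusp1, a phosphatase that inactivates p38 and JNK, was at 1519, 1934, 1943 and 2574 CPM without and 33.8, 50.9, 34.6 and 49.6 CPM with inhibitors. Its groups lay apart in every mouse (log2 fold change -5.56, SE 0.09, adjusted p = 1.6e-12). Dusp2 changed by -2.87, Spry1 by -1.88 and Dusp6 by -1.50.

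Of 5 NF-kappaB subunits, none was called, and the median was -0.07. Rel, named after its values were seen, passed the false discovery rate as lower without the fold, at -0.58, with groups that did not overlap. Nfkb1 was at 210.0, 252, 239.9 and 269.6 CPM without and 235, 247, 245 and 260.0 CPM with inhibitors. Rela was at 208, 227, 226 and 240.3 CPM without and 204, 215, 219 and 217 CPM with inhibitors. Both genes overlapped between groups, with log2 fold changes of 0.03 and -0.07. Of 9 feedback inhibitors of the pathway, 4 were called lower, with a median of -0.27. Nfkbia, which holds NF-kappaB in the cytoplasm, was at 469, 537, 658 and 819 CPM without and 133, 129, 116 and 149 CPM with inhibitors. The groups did not overlap (log2 fold change -2.21, SE 0.10, adjusted p = 1.86e-08). Nfkbiz changed by -4.31, Nfkbid by -4.27 and Tnfaip3, a ubiquitin-editing enzyme, by -2.60.

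Among 13 inflammatory cytokines measured, 6 were called lower and none higher, with a median of -0.61. Il1b, which encodes a secreted interleukin-1, was at 47.2, 37.2, 92.7 and 186 CPM without and 1.61, 2.44, 3.10 and 5.66 CPM with inhibitors. Mouse 1362 was highest in both groups, and the groups did not overlap (log2 fold change -4.78, SE 0.14, adjusted p = 2.28e-10). Tnf was at 71.3, 54.3, 99.7 and 100.1 CPM without and 4.26, 2.52, 5.04 and 5.08 CPM with inhibitors. It was lower in all 4 mice with no overlap (log2 fold change -4.26, SE 0.09). Il10, an anti-inflammatory cytokine, held 271 counts over the 4 control libraries and 2 counts over the treated ones, a ratio of 119.8 with an exact 95% counting interval of 32.8 to 994. Il1a changed by -2.18. Il6, Il18 and Il1rn did not pass the test.

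Of 15 chemokines, 7 were called lower and 1 higher, with a median of -0.88. Without regard to the size of the change, 8 passed the false discovery rate as lower and 5 as higher. The shares over all genes tested were 7.51% and 10.3%. Cxcl2, an attractant of neutrophils, held 687 counts without and 2 counts with inhibitors, a ratio of 303.7 with an interval of 83.8 to 2513. Ccl2, an attractant of monocytes, was at 67.7, 43.8, 97.8 and 109 CPM without and 2.33, 3.65, 3.41 and 2.16 CPM with inhibitors. Ccl4 was at 145, 113, 256 and 408 CPM without and 9.41, 6.79, 6.90 and 10.3 CPM with inhibitors. In both, the groups did not overlap, and the log2 fold changes were -4.74 (SE 0.20) and -4.68 (SE 0.19). Ccl7 changed by -4.21. The chemokine called higher was Ccl5, named after its values were seen, at 1.58, 0.826, 3.90 and 2.42 CPM without and 3.62, 2.17, 5.97 and 5.16 CPM with inhibitors. It was higher in each mouse, while the groups overlapped (log2 fold change 1.03, SE 0.27, adjusted p = 0.0259). Socs3, a feedback inhibitor of cytokine receptors, was the single called gene of 8 Socs genes (median -0.27). It stood at 369, 435, 506 and 654 CPM without and 26.4, 24.4, 26.4 and 32.1 CPM with inhibitors. The groups were separated in all mice, at a log2 fold change of -4.15 (SE 0.09).

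Inducible heat shock genes were among the falls as well. Of 14 heat shock proteins and chaperones, 3 were called lower, with a median of -0.26. Hspa1a, a stress-inducible Hsp70, was at 158, 139.7, 137 and 187 CPM without and 10.3, 10.5, 3.95 and 4.83 CPM with inhibitors. Mice 1361 and 1362 were lowest among the treated libraries, and the groups did not overlap (log2 fold change -4.41, SE 0.19, adjusted p = 1.37e-08). Its neighbour Hspa1b changed by -3.93 and the co-chaperone Dnajb1 by -1.32. Chaperones of the endoplasmic reticulum did not reach a call (0 of 14, median 0.07). Calr was at 1055, 1151, 1150.1 and 1202 CPM without and 1098, 1144, 1139.6 and 1230.0 CPM with inhibitors, and its groups overlapped. Hspa5 passed the false discovery rate without the fold (log2 fold change -0.44, SE 0.05, adjusted p = 0.000181).

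Smaller counts came from the remaining signalling lists. Of 11 Rgs genes, 2 were called lower (median 0.06): Rgs1 at -2.18 and Rgs3 at -1.24. Of 15 innate receptors and costimulatory molecules, 3 were called lower (median -0.30). They were Ptgs2 at -3.25, Cd83 at -1.31 and Cd69, whose groups overlapped near 1 CPM and whose call was lost in 12 of 13 alternatives. Of 18 clock and glucocorticoid-response genes, Tsc22d3 and Sgk1 were called lower (median -0.27). Sgk1, a kinase induced by glucocorticoids, was at 792, 898, 916 and 573 CPM without and 288, 277, 258 and 230.1 CPM with inhibitors. Mouse 1362 had the lowest control value, and the groups did not overlap (log2 fold change -1.57, SE 0.08, adjusted p = 4.01e-08). Of 14 p53 target genes, Gadd45b, Btg2 and Pmaip1 were called lower (median -0.28), at -2.96, -3.63 and -1.13. Pmaip1 lost its call in 3 of 14 alternatives, which were limma on the authors' values, without mouse 1362 (-0.90) and without mice 156 and 1362 together. Of 15 Atf4 targets, Cebpb alone was called (median -0.07), at -1.67. Cebpb was also the single call among 15 microglial transcription factors (median -0.14).

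The animals differed in how high the called genes stood without inhibitors. Of the 92 genes called lower with at least 5 CPM, 74 were highest in mouse 1362 among the libraries without inhibitors. Mouse 156 was lowest for 41 of them and mouse 157 for 40. With inhibitors the order was spread more evenly: the highest value lay in mouse 1362 for 35 genes, in mouse 156 for 26, in mouse 157 for 21 and in mouse 1361 for 10. These genes share their libraries, so the counts are a description of 4 animals. Without mouse 156 and mouse 1362 together, a setting added after the data were seen, 128 genes were called lower and 55 higher. Of the 128, 95 were among the 135.

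Genes of the cytosolic ribosome lay on the other side. Of 80 ribosomal protein genes, none passed the fold threshold. The false discovery rate was passed by 72 as higher and none as lower, beside 10.3% and 7.51% of all genes tested. The median log2 fold change was 0.49, beside -0.01 over all genes tested, and 49 of 80 did not overlap between groups, against 1092 of 13334 genes in the direction higher (8.19%). Rpl32, named after its values were seen, was at 48.5, 53.1, 46.5 and 68.9 CPM without and 104, 112, 94.3 and 107 CPM with inhibitors. All 4 treated libraries were highest (log2 fold change 0.95, SE 0.08, adjusted p = 7.51e-06). Rpl35 was at 38.7, 39.8, 39.4 and 51.3 CPM without and 77.7, 80.2, 66.8 and 80.9 CPM with inhibitors. The groups lay apart, with mouse 1362 highest among the controls (log2 fold change 0.86, SE 0.07, adjusted p = 1.19e-05). Rps9 changed by 0.37. Rpl4 changed by 0.23, with overlapping groups. The difference from Input passed the false discovery rate as higher for 40 of 80, beside 100 of all 14930 genes (0.67%), and for 31 without mouse 1362, and for 6, 6 and 4 without mice 156, 1361 and 157. In all libraries of the fraction fitted together, 34 of 80 TRAP changes passed the false discovery rate, and in limma on the authors' values 36 did. Under DESeq2 size factors the median was 0.47. Rpl32 passed the fold threshold without mouse 1362, at 1.06, and without mice 156 and 1362 together, at 1.05.

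Of 29 translation initiation and elongation factors, none was called, and the median was 0.13. The false discovery rate was passed by 11 as higher and 3 as lower, beside 10.3% and 7.51% of all genes tested. Eef1a1, which brings aminoacyl-tRNA to the ribosome, was at 1898, 2111, 1866 and 2519 CPM without and 2511, 2615, 2336 and 2589 CPM with inhibitors. The groups overlapped through mouse 1362, and the gene passed the false discovery rate alone (log2 fold change 0.27, SE 0.06, adjusted p = 0.0118). Eef2 did not pass (log2 fold change 0.14). Of 82 nuclear genes of oxidative phosphorylation, 24 passed the false discovery rate as higher and none as lower. Their median was 0.17, and the shares of all genes tested were again 10.3% and 7.51%. The 2 with the highest CPM, Atp5b and Atp5a1, did not pass, at -0.07 and -0.00. Without mouse 157, 12 passed. With all libraries of the fraction, 2 of 84 of these genes passed, and 3 of 29 translation factors. No gene encoded in the mitochondrion was listed.

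Coding length ran alongside these changes. It was known for 12690 of the genes tested (95.2%) from the GENCODE annotation. Genes were split by coding length into 4 groups of near-equal size, a description added after the values were seen. In the group with the shortest coding sequences, 93 to 897 bases, the median log2 fold change was 0.10 and 22.4% of 3179 genes passed the false discovery rate as higher. In the longest group, 2274 to 26397 bases, the median was -0.08 and 3.60% of 3169 genes passed as higher, while 11.9% passed as lower. The ribosomal protein genes had a median coding length of 454.5 bases, and 75 of 80 lay in the shortest group. Without them, the median of that group was 0.10 as well. Nuclear genes of oxidative phosphorylation had a median coding length of 430.5 bases. Their median log2 fold change was 0.17, beside 0.49 for the ribosomal protein genes. The part of coding length in the ribosomal protein result was not tested. In Input RNA the same groups had medians of 0.01 and -0.01.

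**Figure D2:**
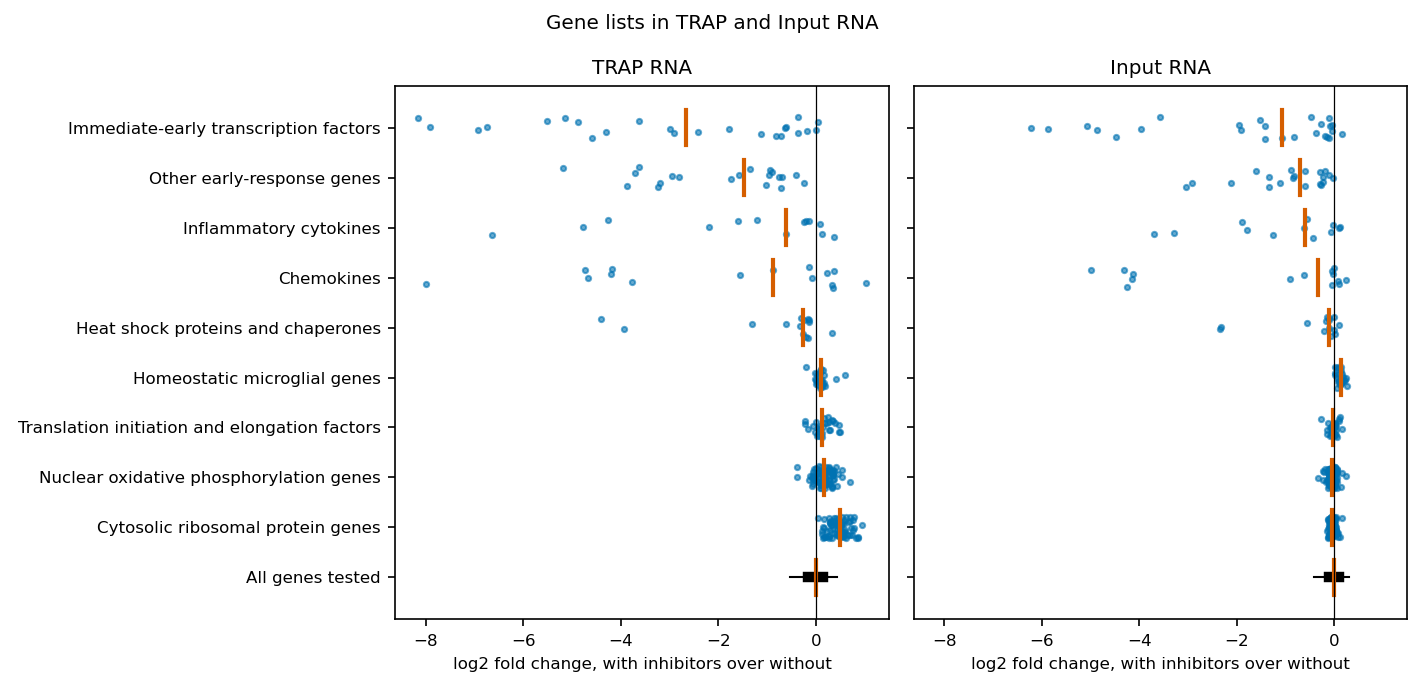
Log2 fold change with inhibitors over without in TRAP RNA and Input RNA; each point is a gene of the list, orange bars are list medians, and the black bar marks the middle 50% and the thin line the middle 90% of all genes tested. The 80 ribosomal protein genes have a median of 0.49 in TRAP RNA and -0.05 in Input RNA.

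Of 26 homeostatic microglial genes, none was called, and the median was 0.09. The false discovery rate was passed by 4 as higher and 1 as lower, beside 10.3% and 7.51% of all genes tested. The count passing as higher was 9 without mouse 157, 2 without mouse 1361, 2 without mouse 1362 and 2 without the replicate block. Their summed level was 74178, 86363, 80645 and 76184 CPM without and 83701, 86682, 84154 and 82759.9 CPM with inhibitors. It was higher with inhibitors in 4 of 4 mice, for which an exact sign-flip test cannot reach 0.05. The 282 microglial markers used by the study summed to 192706, 218776, 212211 and 213527 CPM without inhibitors. With inhibitors they summed to 200291, 205354, 201003 and 202882 CPM, lower in 3 of 4 mice (exact sign-flip p = 0.25). That list holds genes of the response itself. Of 281 tested, 26 were called lower, among them Zfp36, Atf3, Ccl2 and Ccl4. Zfp36 averaged 3448 CPM without and 135 CPM with inhibitors. P2ry12, a purinergic receptor, was at 2299, 3070.4, 2467 and 2126 CPM without and 2705, 2824, 2794 and 2554 CPM with inhibitors. Its groups overlapped. Csf1r, the receptor for colony-stimulating factor, had a log2 fold change of 0.05, and Siglech one of 0.02, neither past the test. None of the lists of disease-associated microglial genes (18 measured, median 0.04), interferon-stimulated genes (18, 0.04), antigen presentation genes (13, 0.07) or cathepsins and other lysosomal genes (12, 0.07) held a call. Ctsd, a lysosomal protease, was at 10084, 10524, 9067 and 9359 CPM without and 12749.8, 12479.8, 11763 and 12188 CPM with inhibitors. All treated libraries were higher, a change below the fold threshold (log2 fold change 0.34, SE 0.04, adjusted p = 0.000346). Nrf2 antioxidant genes (14, 0.02), SR splicing factors (16, -0.03), nuclear long noncoding RNAs (7, -0.17) and Snhg genes (14, 0.30) held no call either. Apoe, Ctsb, B2m, H2-D1, Ctss, Ftl1, Fth1, Srsf3, Malat1 and Gas5 did not pass, with log2 fold changes between -0.16 and 0.08. Irf1, Srrm2 and Snhg11 passed the false discovery rate alone, at -0.50, -0.28 and -0.64, the last beside a list median of 0.30.

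The same suspensions were also sequenced before the pull-down, as Input RNA of all their cells. There, 50 of 14774 genes were called lower (0.338%) and 0 higher (0%) by edgeR, and the DESeq2 Wald test and limma called 0 higher as well. At an unadjusted edgeR p under 0.05, 134 of the 14774 genes had a positive change, fewer than chance alone gives at that threshold. In both fractions, 49 genes were called lower, which is 36.3% of the 135 in TRAP and 98% of the 50 in Input, where 128 of the 135 were tested. A direct test of the difference in the inhibitor effect, fitted over the 16 libraries with the suspension as a block, called 53 of 14930 genes (0.355%). The effect was lower in TRAP for 51 (0.342%) and higher for 2 (0.0134%). Without the replicate block, the difference was called for 33 lower and 1 higher. Leaving out mouse 1361, mouse 1362 or mouse 157 gave 31, 28 or 33 lower.

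Dusp1 is an example. In Input it was at 398, 581, 463 and 703 CPM without and 44.9, 61.5, 62.9 and 69.8 CPM with inhibitors. It fell there in all 4 mice, by less than in TRAP: the log2 fold changes were -3.15 and -5.56, and their difference was -2.44 (SE 0.14, adjusted p = 2.37e-06). In Input, Nr4a1 was at 134, 133, 212 and 283 CPM without and 48.1, 59.02, 40.5 and 46.1 CPM with inhibitors. CPM of the 2 fractions were scaled separately, so levels are not compared between them. The log2 fold changes of Nr4a1 were -1.91 in Input and -4.88 in TRAP, and the tested difference was -3.01 (adjusted p = 2.66e-05). Fosb, Ier3, Klf2 and Egr3 had differences of -2.32, -2.39, -2.23 and -2.67. By contrast, the difference was not called for Ccl4 (0.28, adjusted p = 0.729), Ccl2 (-0.51), Tnfaip3 (-0.14) or Nfkbid (-0.05). Input holds RNA of other brain cells, and their part in its smaller falls was not tested. Fewer cells of a type and less RNA per cell cannot be told apart in such bulk samples.

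**Figure D3:**
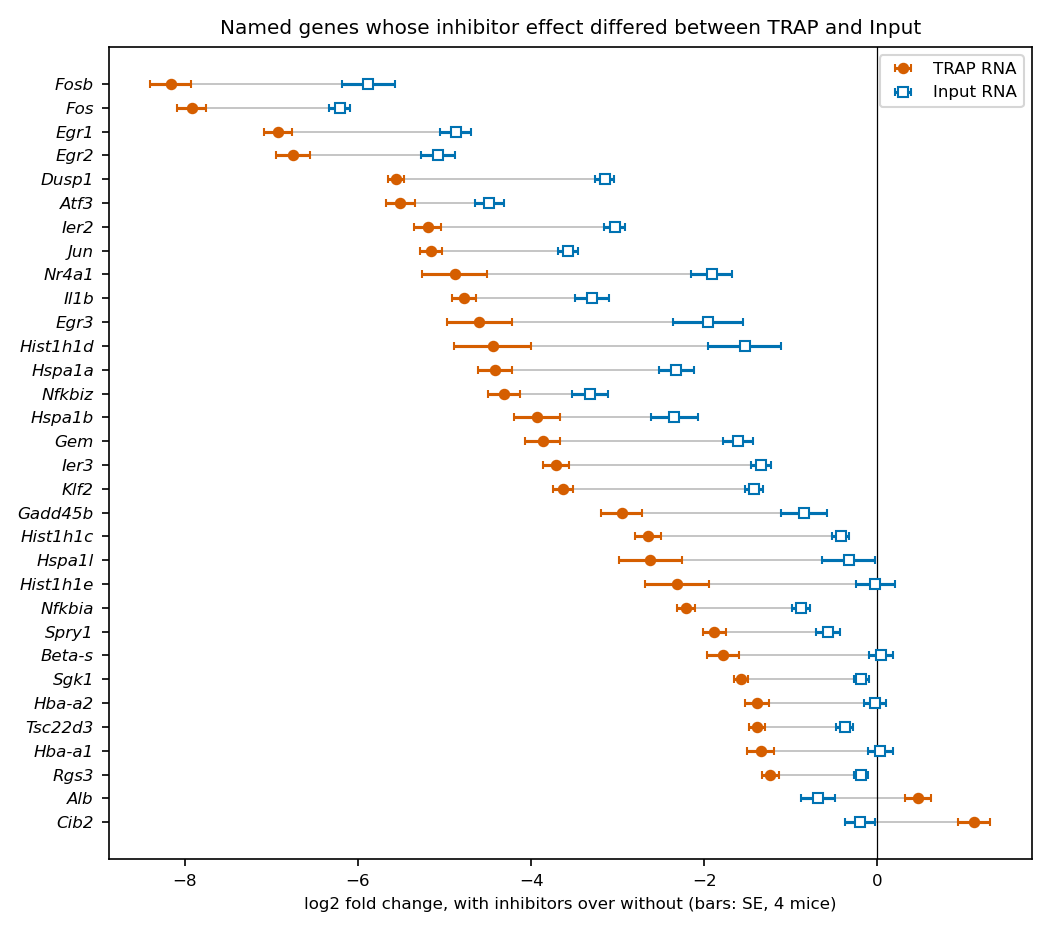
Log2 fold change with inhibitors over without (horizontal axis) for the named genes tested in both fractions whose effect differed between them. Filled circles are TRAP RNA and open squares Input RNA. Bars are standard errors from the edgeR fit to 4 mice, not the spread between mice. Klf2 is at -3.63 in TRAP RNA and -1.43 in Input RNA, while Cib2 is at 1.12 and -0.20.

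Of 5 linker histone genes tested and looked at after the values were seen, not from a chosen list, 3 were called in the difference between fractions, while H1f0 (-0.31) and H1fx (-0.11) were not. Hist1h1c was at 149.6, 170.2, 223 and 293 CPM without and 39.3, 28.3, 29.9 and 31.97 CPM with inhibitors in TRAP. In Input it was at 161, 167, 159 and 142 CPM without and 143, 114, 122 and 94.3 CPM with them. The TRAP groups did not overlap, while the Input change of -0.42 was not called, and the difference was -2.26 (adjusted p = 8.43e-05). Hist1h1d, chosen by rule, and Hist1h1e, both under 6 CPM, had differences of -2.99 and -2.31. Neil3 and Klk6, also chosen by rule, stayed under 3 CPM in all 8 TRAP libraries.

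Genes of red blood cells moved with the treatment in TRAP. Of 11 blood cell markers, 6 were tested and 4 were called lower (median -1.37): the globin genes Beta-s, Hba-a1 and Hba-a2, and Alas2 of heme synthesis. The other 2, Ly6c2 (0.13) and Ccr2 (-0.07), are genes of white cells and did not pass. Hba-a1, the one with the highest CPM, was at 429, 100.4, 81.03 and 88.4 CPM without and 96.7, 52.4, 37.5 and 41.96 CPM with inhibitors. Mouse 156 stood far above the other controls, and the groups overlapped (log2 fold change -1.35, SE 0.16, adjusted p = 0.000154). Without the replicate block, 1 of the 6 was called. In Input, Hba-a1 had a log2 fold change of 0.03, and the difference between the fractions was -1.38 (adjusted p = 0.054). The summed level of all 11 blood markers was 829.4, 188.9, 154 and 173 CPM without and 183.9, 96.6, 75.4 and 77.8 CPM with inhibitors, lower in 4 of 4 mice. An exact two-sided sign-flip test gave the smallest p that 4 pairs allow, which cannot reach 0.05. The granulocyte and lymphocyte markers S100a8, S100a9, Ngp, Cd3e and Ms4a1 were at 0 in 3 to 6 of the 8 libraries.

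Other cell types were followed by their summed markers. The 10 oligodendrocyte markers summed to 1423, 507, 725 and 744 CPM without and 685, 529, 613 and 498 CPM with inhibitors. Mouse 156 without inhibitors was highest (exact sign-flip p of the sum 0.25). None of the 10 was called, and 6 passed the false discovery rate as lower, beside 7.51% of all genes tested. Mbp had the highest CPM of that list, at a mean of 295 without and 165 with inhibitors. The 10 astrocyte markers summed to 2382, 1956, 1762 and 1381 CPM without and 1752, 1584, 1961 and 1362 CPM with inhibitors, with Slc1a2 the most abundant and no call (exact p = 0.375). The 10 endothelial markers held no call, and their sum was lower in 1 of 4 mice (exact p = 0.375). Neuron markers (9, exact p = 1), pericyte and smooth muscle markers (7, p = 0.25) and border-associated macrophage markers (8, p = 0.75) held no call. Outside the blood list, no marker of these lists was at 0 in any of the 8 libraries. Without mouse 157, 2 oligodendrocyte markers and 1 neuron marker were called. Of 6 ependymal markers (median -0.46), Ccdc153 was called lower at 0.930 to 5.20 CPM, a call that 8 of 14 alternatives lost. The study also used marker lists taken from earlier published data. Of its 281 microglial markers tested, 26 were called lower, with a median of -0.005. Its astrocytic list held 0 calls of 138 (median -0.20), the oligodendrocytic list 2 of 178 (-0.18; Bfsp2 and Dusp15, both with group means under 3 CPM), the neuronal list 0 of 73 (-0.04) and the endothelial list 1 of 230 (0.12; Klf2). The part of these cells in the falls was not tested. Leaving out mouse 156, which held the most blood and oligodendrocyte RNA, gave 130 genes called lower, of which 107 were among the 135.

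Rises past the fold threshold were few and low, and without mouse 157 there were 5 in place of 15. Cib2, a calcium- and integrin-binding protein, is the single gene that met the naming rule, at 5.59, 4.05, 5.61 and 4.93 CPM without and 9.57, 11.7, 10.2 and 12.3 CPM with inhibitors. Its groups did not overlap (log2 fold change 1.12, SE 0.18, adjusted p = 0.00176). In Input it was at -0.20, and the difference was 1.30 (adjusted p = 0.0254). The call in TRAP was lost with the DESeq2 Wald test and without mouse 157, where the value was 0.98. The remaining called rises of 5 CPM or more were the noncoding RNA LOC100503496 and Foxp3, a factor of regulatory T cells, both named after their values were seen. Foxp3 was at 1.71, 3.75, 2.03 and 2.58 CPM without and 12.6, 14.01, 2.09 and 1.83 CPM with inhibitors. Mice 156 and 157 were high with inhibitors and no other library was, and the call was lost without mouse 156 (0.65), without mouse 157 (0.93) and in 6 more of 14 alternatives. LOC100503496 was at 0.0658, 0, 0 and 20.9 CPM without and 22.1, 19.9, 25.04 and 19.1 CPM with inhibitors. Mouse 1362 had similar levels in both of its libraries, and the 3 others had almost none without inhibitors. Alb, named for its difference between fractions (1.14, adjusted p = 0.013), was at 18.8, 12.6, 17.5 and 9.62 CPM without and 20.8, 24.4, 18.6 and 16.2 CPM with inhibitors in TRAP (0.47, past the false discovery rate alone). In Input it was at 74.1, 37.3, 40.9 and 36.0 CPM without and 28.5, 33.1, 32.8 and 19.8 CPM with inhibitors (-0.69, not past the test). Mouse 156 had the highest Input value without inhibitors. The part of each fraction in the difference was not tested.

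TRAP RNA of 2 other preparations gives a scale for these values: tissue homogenised directly, and a suspension made mechanically in the cold (Dounce). The study reports that reads of tissue and Dounce TRAP libraries leaned more to transcript ends than those of the enzymatic suspensions. It also reports the lowest RNA integrity in Dounce Input. The part of RNA quality in the levels below was not tested. On a shared TMM scale over 16 libraries, Fos averaged 4720.2 CPM without inhibitors and 19.1 CPM with them. Its mean was 29.7 CPM in TRAP RNA from tissue (4 other mice) and 8.78 CPM in TRAP RNA labelled Dounce (4 other mice). Egr1 averaged 2921, 23.4, 108 and 20.1 CPM in the same order. For Zfp36 the means were 3668, 143, 14.2 and 70.5 CPM. With inhibitors, Egr1 was thus below the tissue mean and Zfp36 above it, differences that were not tested. TRAP RNA of tissue also held more neuronal RNA: the neuron marker Snap25 averaged 32.5, 33.9, 2168 and 362 CPM in the same order. The part of neuronal RNA in the differences from tissue was not tested. Rpl32 averaged 57.7, 109.7, 104 and 34.9 CPM. Csf1r averaged 12162, 12439.5, 1881 and 8594 CPM.

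Genes called lower were short in the genome. Their span from start to end of the gene had a median of 4436 bases for all 135 and 3740 bases for the 92 with at least 5 CPM, against 22366 bases for all genes tested. Promoter windows of 300 bases from RefSeq (GRCm38.p6) were available for 96 of the 135 genes (71.1%), too few to compare their motifs with those of all genes, so that comparison is void. Of 45 named genes called lower that had a window, 17 held at least 1 match and 28, among them Jun, Junb, Atf3, Il1b and Tnf, held none. The 6 windows shown were chosen for holding a match, so nothing about the other genes follows from them. Both strands were searched for TGACGTCA, TGACTCA, the CArG box and the kappa-B motif. Of 32851 windows in the whole table, 1.79% held TGACGTCA, 5.20% TGACTCA, 1.63% the CArG box and 8.46% the kappa-B motif. Among windows of the genes tested, of which 79.4% had a window, also too few to compare, the shares were 2.95%, 3.64%, 1.28% and 10.5%. A match is a run of letters, not a shown binding site. Capitals mark the matches in the windows of Zfp36 (minus strand, chr7:28379179-28379478, CArG box 58 bases before the start), Egr2 (plus strand, chr10:67537619-67537918, CArG box 72 before, 1 of its 5 windows, of which 3 hold this same box, 1 another CArG box and 1 kappa-B matches), Dusp1 (minus strand, chr17:26508423-26508722, TGACGTCA 143 before), Btg2 (minus strand, chr1:134079106-134079405, TGACGTCA 166 before), Nfkbia (minus strand, chr12:55492598-55492897, kappa-B motif 29 before) and Nfkbid (plus strand, chr7:30422156-30422455, TGACGTCA 51 before and kappa-B motifs 226 and 181 before, 1 of its 3 windows, the other 2 of which hold no match).
Zfp36: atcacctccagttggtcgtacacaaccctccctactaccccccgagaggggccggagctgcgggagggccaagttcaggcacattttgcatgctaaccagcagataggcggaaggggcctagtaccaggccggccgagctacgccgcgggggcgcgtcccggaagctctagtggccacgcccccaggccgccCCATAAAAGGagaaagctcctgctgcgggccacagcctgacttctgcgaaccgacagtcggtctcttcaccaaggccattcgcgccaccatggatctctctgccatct
Egr2: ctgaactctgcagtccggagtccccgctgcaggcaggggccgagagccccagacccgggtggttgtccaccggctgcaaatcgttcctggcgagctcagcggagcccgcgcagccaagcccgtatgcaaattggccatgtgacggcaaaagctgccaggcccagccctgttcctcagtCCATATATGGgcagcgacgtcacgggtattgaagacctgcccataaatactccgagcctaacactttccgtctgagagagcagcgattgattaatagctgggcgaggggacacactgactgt
Dusp1: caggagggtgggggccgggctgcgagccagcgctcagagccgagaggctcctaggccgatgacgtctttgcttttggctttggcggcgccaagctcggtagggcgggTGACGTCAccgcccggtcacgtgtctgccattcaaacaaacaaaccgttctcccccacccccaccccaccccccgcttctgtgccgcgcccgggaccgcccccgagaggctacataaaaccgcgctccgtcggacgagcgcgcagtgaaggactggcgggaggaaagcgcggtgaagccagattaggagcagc
Btg2: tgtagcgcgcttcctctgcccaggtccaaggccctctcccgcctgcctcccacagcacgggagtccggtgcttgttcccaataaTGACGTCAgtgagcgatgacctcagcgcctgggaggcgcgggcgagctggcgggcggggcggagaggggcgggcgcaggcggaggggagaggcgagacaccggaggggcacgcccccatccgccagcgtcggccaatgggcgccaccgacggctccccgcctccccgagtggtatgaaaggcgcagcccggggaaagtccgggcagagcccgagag
Nfkbia: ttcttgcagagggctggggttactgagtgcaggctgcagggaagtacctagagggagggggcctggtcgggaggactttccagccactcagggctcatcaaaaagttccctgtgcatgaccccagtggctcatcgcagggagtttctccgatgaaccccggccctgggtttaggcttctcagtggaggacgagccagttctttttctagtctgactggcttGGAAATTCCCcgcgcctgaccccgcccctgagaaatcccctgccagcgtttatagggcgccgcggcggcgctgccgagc
Nfkbid: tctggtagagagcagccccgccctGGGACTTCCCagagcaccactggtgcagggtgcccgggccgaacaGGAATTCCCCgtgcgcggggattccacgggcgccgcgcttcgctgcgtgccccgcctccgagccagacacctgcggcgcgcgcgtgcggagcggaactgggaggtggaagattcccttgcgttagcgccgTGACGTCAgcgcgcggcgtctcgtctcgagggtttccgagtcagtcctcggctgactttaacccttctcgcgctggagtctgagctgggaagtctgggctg

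The comparison rests on 4 animals, and the 3 inhibitors were given together, so the effect of each cannot be told apart. Anisomycin acts on the ribosome, and its part in the pull-down itself was not tested. TRAP RNA held markers of other cell types, at the levels given. Of the genes called lower, 43 had a mean under 5 CPM, as did 12 of those called higher, and several named genes at that level lost their call when 1 animal was left out. A fold change above 2 was required for a call. Smaller changes are given here without a call, as single values, list medians or counts that passed the false discovery rate.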

How the data were processed

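RNA sequencing of TRAP and Input RNA from the suspensions was used. Deposited values were raw expected counts per gene, and log2 values that the authors normalised with DESeq2 and set against the median of tissue Input. The authors aligned to mm10 with Strand NGS 4.0 and removed duplicates. Members and lists were chosen with earlier results of these data known. Counts were rounded and fitted with edgeR 4.0.16 (R 4.3.3; quasi-likelihood, TMM), mouse as a paired factor, for genes with more than 5 counts in every library of at least 1 group. P-values were two-sided and adjusted over all genes tested. The difference between fractions was tested over 16 libraries with the suspension as a block. Named genes were the 15 largest falls and rises called, with the same direction in all 4 mice and at least 5 CPM in the higher group (predicted genes left out), up to 4 called genes per list or else the 2 with the highest CPM, and up to 5 genes per direction of the difference. Microglial genes checked the label, and a few genes said to be so in the text were named after their values were seen. Summed markers used an exact sign-flip test over 16 sign patterns. Alternatives changed scaling, filter, test (DESeq2 1.42.0, limma 3.58.1), replicate block, table and animals. Counting intervals cover counting error only.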

Additional observations from a re-analysis of the deposited data

Results flagged for a closer look

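Among 256 groups of 4 libraries tested, 23 held a library far from its others, where chance gives about 1 in 20. Mouse 1362 accounted for many of them. Without inhibitors it stood apart at 110.1 CPM for Rgs3, 69.8 for Gadd45b, 6760.5 for Ctsb, 1577 for Eef2, 5.86 for Rgs5, 606 for Atp5a1 and 51.3 for Rpl35. With inhibitors it stood apart at 167 CPM for Zfp36, 374 for Zfp36l1, 195 for Cd83, 6405 for Ctsb and 2524 for Tmem119.

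Mouse 156 stood apart without inhibitors in blood genes, at 243 CPM for Beta-s, 32.8 for Alas2, 112 for Hba-a2 and 429 for Hba-a1. Its summed blood markers were at 829 CPM, its summed neuron markers at 182 and Ndrg4 at 64.7. With inhibitors, the same mouse stood apart at 29.1 CPM for Hba-a2 and 0.161 for Il10. The remaining values were Fosb at 4.87 CPM in mouse 157 and Rgs5 at 26.7 CPM in mouse 1361, both with inhibitors.

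For 34 of the named genes, the inhibitor effect differed between TRAP and Input RNA by the test of the difference in edgeR over 16 libraries. The values are the log2 fold change in TRAP minus that in Input. In transcription factors of the early response, they were Nr4a1 (-3.01), Egr3 (-2.67), Fosb (-2.32), Klf2 (-2.23), Egr1 (-2.08), Fos (-1.75), Egr2 (-1.64), Jun (-1.61) and Atf3 (-1.06). Other early-response and feedback genes included Dusp1 (-2.44), Ier3 (-2.39), Gem (-2.22), Ier2 (-2.19), Gadd45b (-2.11), Sgk1 (-1.41), Nfkbia (-1.35), Spry1 (-1.34), Il1b (-1.36), Rgs3 (-1.08), Tsc22d3 (-1.04) and Nfkbiz (-1.003). Heat shock genes were Hspa1l (-2.33), Hspa1a (-2.15) and Hspa1b (-1.69), and linker histones Hist1h1d (-2.99), Hist1h1e (-2.31) and Hist1h1c (-2.26). The globins were Beta-s (-1.77), Hba-a1 (-1.38) and Hba-a2 (-1.35), and the DNA glycosylase gene Neil3 was at -3.62. Klk6, an oligodendrocyte protease gene too low for the test within TRAP RNA, was at -2.62. In the opposite direction were Cib2 (1.30) and Alb (1.14).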

How the results depend on the processing

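Of the log2 fold changes of named genes in TRAP RNA under the alternatives, 1491 kept their side of the threshold, 76 were no longer called and 2 passed the threshold newly. For genes that were called, 0 of 855 values changed sign. For genes that were not called, 53 of 714 did, in 19 genes such as Gad1 and Snap25. Counts of called genes kept within 1.5 times of their value in 79 cases and moved further in 24.

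In TRAP RNA, 150 genes were called, 135 lower and 15 higher. The DESeq2 Wald test called 83 (82 lower, 1 higher), of which 80 of the lower were among the 135. With all libraries of the fraction fitted together, 94 were called (1 higher). With at least 10 counts in every library, 95 were called (5 higher), and only 90 of the 135 genes were then tested. The authors' log2 values in limma gave 9 higher, and a false discovery rate of 0.05 gave 8 higher. Without mouse as a replicate block, 116 genes were called, 109 lower and 7 higher, and 107 of the 135 were called again. Leaving out each replicate in turn gave 133 to 168 called, 118 to 163 lower and 5 to 15 higher, the lowest number of higher genes without mouse 157. All 135 genes kept a negative change in each alternative that tested them. Apart from the smaller number of genes tested, the causes were not tested.

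Of the alternatives chosen after seeing the data, a mean of at least 5 CPM left 92 lower and 3 higher. Leaving out mouse 156 and mouse 1362 together gave 128 lower and 55 higher, and 95 of the 135 lower genes and 8 of the 15 higher genes were called again.

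In Input RNA, all counts stayed between 42 and 53, with 0 higher in edgeR, DESeq2 and limma. At an unadjusted edgeR p under 0.05, 134 of 14774 genes were higher, fewer than chance alone gives at that threshold. For the difference between the fractions, 53 genes were called (51 lower, 2 higher). Without the replicate block, 34 were called (33 lower, 1 higher), and leaving out each replicate gave 31 to 43 called, 28 to 41 lower and 0 to 3 higher. The cause was not tested.

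Of the counts per gene list, 233 were within 1.5 times and 19 moved further. Calls of Cd69, Bfsp2, Neil3, Ccdc153, Foxp3, Dusp15 and Alas2, all at low levels in at least 1 group, were lost in 5 or more alternatives. The DESeq2 Wald test lost the calls of these 7 and of Cxcl2, Il10, Dusp2, Ptgs2, Hspa1l, Hist1h1d, Hist1h1e and Cib2. Whether its filter on mean counts or the test itself removed them was not tested. For Cxcl2 and Il10, 2 counts with inhibitors limit the fold change.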

Other observations

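Libraries of 1 mouse deviated together to a limited degree. Across genes, deviations from the group means in TRAP RNA had a mean correlation of 0.222 between the 2 libraries of a mouse and -0.073 between libraries of other mice, and genes are not independent replicates. In Input RNA, the mean within a mouse was 0.035. TRAP RNA of tissue held 8701666 to 11141567 counts per library and Dounce TRAP RNA 2471428 to 4724563, in 4 other mice each. Rbp3, called lower in Input RNA (log2 fold change -3.26), was not tested in TRAP RNA.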
